A study of Mus musculus with 5 samples.

Results

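The integrated stress response and the unfolded protein response were described in whole mouse retinas 7 days after optic nerve crush (ONC) through 10 genes chosen by name: Atf4, Ddit3, Chac1, Trib3, Asns, Sesn2, Psat1, Ddit4, Hspa5 and Xbp1. Of these 10 genes, 9 had counts and all 9 passed the filter on low counts, among 14992 genes that passed it out of 25655 in the table. Ddit3, which encodes the stress factor CHOP, was not analysed here. The retinas came from wild-type C57BL/6 mice of 8 to 10 weeks whose left optic nerve had been crushed. Mice of both sexes were used in the study, and sex was not part of the comparison. From 24 h before ONC and daily thereafter the mice received intraperitoneal DMSO, the vehicle, or Sorbinil at 10 mg/kg, an inhibitor of aldose reductase, the enzyme that turns glucose into sorbitol. The DMSO group had 3 retinas (replicates 1, 2 and 3) and the Sorbinil group had 2 (replicates 1 and 3). The study set aside another Sorbinil sample after a principal component analysis, and that sample was not analysed here. All 5 retinas were injured, so the comparison concerns treatment within injured retina and holds no uninjured retina. Each retina came from a separate mouse.

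In the integrated stress response, 4 kinases that sense different insults phosphorylate the translation factor eIF2alpha, which slows protein synthesis in general and favours translation of ATF4. ATF4 then switches on genes of amino acid synthesis and uptake, tRNA charging and growth control. In the unfolded protein response, the endoplasmic reticulum (ER) sensors PERK, IRE1 and ATF6 answer to misfolded protein: PERK feeds into eIF2alpha, IRE1 splices Xbp1 mRNA, and ATF6 is cut to release a transcription factor, so that chaperones such as BiP (Hspa5) are made. RGCs (retinal ganglion cells), whose axons form the optic nerve, are known to mount both responses after axon injury. ATF4 is controlled by translation and XBP1 by splicing, neither of which is read by counts per gene. In bulk tissue, fewer cells of a type and less RNA per cell cannot be told apart.

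DNA letters through which these factors are known to act were sought in the RefSeq promoter windows of the 9 genes, from 250 bases before to 50 bases after each transcription start, on both strands. The C/EBP-ATF response element (CARE, TGATGNAA), the type of element bound by ATF4 with a C/EBP partner, was found in 3 of the 9 genes and in 3.97% of 32851 windows of the table. The ER stress response element (ERSE, CCAAT, 9 bases, CCACG), bound by ATF6 with NF-Y, was found in 1 of the 9 genes and in 0.119% of windows. The shorter ERSE-II (ATTGG, 1 base, CCACG, in 0.0365% of windows) and the XBP1 element UPRE (TGACGTGG, in 0.676%) were found in 0 of the 9. None of these motifs overlapped another at the sites found. Other genes described further down were searched too. Herpud1, an ER gene, carried both a CARE and an ERSE-II. The windows of Phgdh, Mthfd1l, Cbs, Cdkn1a, Cebpb, Nck1, Ern1, Ppp1r15a and Eif2ak1 to Eif2ak4 held none of these motifs. The sites below, 30 bases each, show which of the genes carry the letters. Capitals mark the motif, coordinates are those of GRCm39, and the strand named is the strand printed.
Chac1 CARE, chr2:119181519-119181548, minus strand: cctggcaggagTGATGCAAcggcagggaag
Trib3 CARE, chr2:152185948-152185977, plus strand: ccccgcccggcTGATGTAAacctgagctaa
Asns CARE, chr6:7693214-7693243, minus strand: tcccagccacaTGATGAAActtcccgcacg
Hspa5 ERSE, chr2:34662032-34662061, plus strand: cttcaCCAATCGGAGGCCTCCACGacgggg
Herpud1 CARE, chr8:95112934-95112963, minus strand: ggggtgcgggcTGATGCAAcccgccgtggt
Herpud1 ERSE-II, chr8:95112996-95113025, plus strand: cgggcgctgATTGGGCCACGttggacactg
The Chac1 motif began 193 bases before the RefSeq start, the Asns motif 23 bases before it and the Hspa5 motif 65 bases before it, whereas the Trib3 motif began at base 15 of the transcript. In Herpud1 the CARE lay 112 bases and the ERSE-II 52 bases before the start. GENCODE also annotates transcripts that start further upstream. Each printed site except the Herpud1 CARE overlaps an annotated exon of its own gene. The Herpud1 ERSE-II site does so only at its end, since the annotated gene starts at chr8:95113022, after the motif. A match of letters is a description of sequence and not of factor binding.

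Libraries held 56096541 to 90288552 counts. Sorbinil replicate 1 stood apart from the other 4: 41.7% of all genes tested lay below every DMSO retina in it and 43.4% lay above. In Sorbinil replicate 3, 29.1% lay below and 4094 of the 14992 genes lay above. Marker lists of cell types differed in Sorbinil replicate 1 too, and the values that follow are from that retina. All 10 rod markers were above every DMSO retina (list median 0.54 log2 units above the DMSO mean), with a summed level of 1.23e+05 CPM (library-scaled counts, the level used throughout) against 7.44e+04 to 8.83e+04 CPM in DMSO. All 10 markers of Müller glia, the support cells that span the retina, were below every DMSO retina (list median -1.44), and their sum was 2.20e+03 CPM against 5.85e+03 to 6.81e+03 CPM in DMSO. The RGC list had 10 of 12 markers below (median -1.26), with a sum of 85.0 CPM against 171 to 268 CPM in DMSO, and the microglia list had 12 of 12 below (median -0.89). The list of endothelium and pericytes, the cells of vessels, was the lowest, with 11 of 12 below and a median of -1.75. In Sorbinil replicate 3 the rod median was -0.32 with 8 of 10 markers below every DMSO retina, the Müller median was 0.02 and the RGC median was -0.22. The vessel list was low there as well, at -0.26 with 7 of 12 markers below. In both Sorbinil retinas 6 of its 12 markers were below every DMSO retina, beside 10.5% of all genes. By the threshold of the study, described below, 3 of the 12 were called lower, beside 203 of all 14992 genes. Rod markers summed to 6.30e+04 CPM or more in every library, as the label retina implies, and no marker of rods, Müller glia, RGCs, microglia or vessels had a count of 0 in any retina. Lens markers summed to 62.8 CPM in DMSO replicate 3 and 40.7 CPM in Sorbinil replicate 3, against 1.11 to 3.14 CPM in the others. The part of these differences in the results that follow was not tested, and fitted changes and list medians are given with Sorbinil replicate 1 and without it. The fit without Sorbinil replicate 1 leaves 1 Sorbinil retina, which is assumed to vary like the DMSO retinas. Changes from that fit are thus sizes from 1 retina and not a replicated check.

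Scaled by length, as CPM per kb of the canonical transcript, the 9 genes spanned levels from a few units to about 70. In DMSO retinas the mean levels of Hspa5 (71.9 CPM per kb, range 63.9 to 83.3), Atf4 (68.7, range 65.9 to 70.3) and Ddit4 (68.0, range 64.8 to 70.0) were highest and their ranges overlapped. Xbp1 followed at 40.8 CPM per kb (range 36.1 to 44.3) and Psat1 at 17.0 (range 16.6 to 17.6), each apart from its neighbours. Asns (6.46, range 5.52 to 7.01) and Sesn2 (6.16, range 5.32 to 6.88) overlapped, as did Chac1 (3.16, range 2.05 to 4.12) and Trib3 (2.67, range 2.27 to 3.20) at the bottom. In the Sorbinil retinas Atf4 (64.1 CPM per kb), Ddit4 (63.8) and Hspa5 (57.8) were again the highest means, and Chac1 (2.17) and Trib3 (2.81) were the lowest, with overlapping values.

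**Figure D1:**
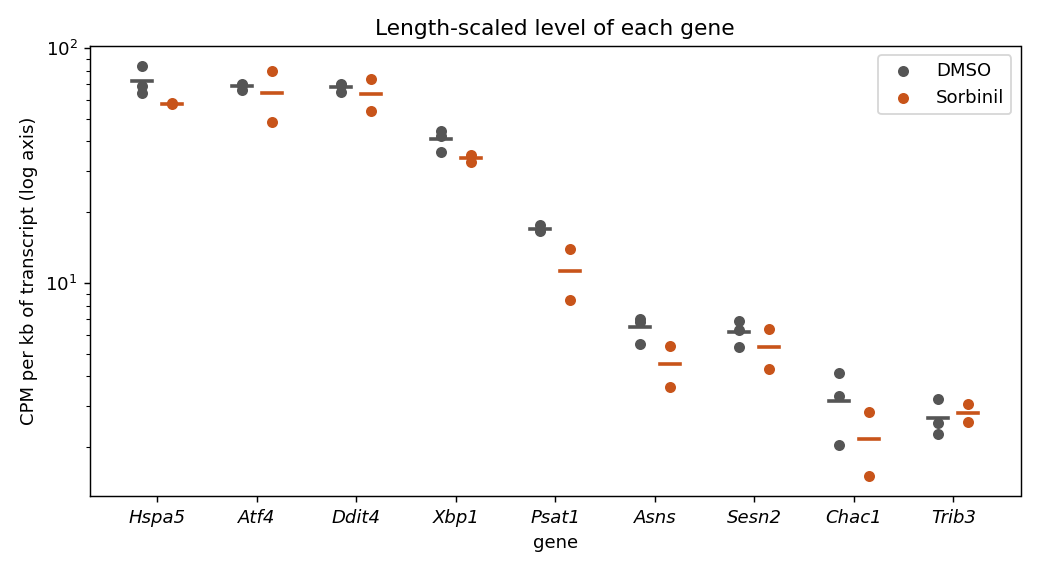
Level of each of the 9 genes in CPM per kb of canonical transcript (log axis), with a point for each retina, DMSO (n = 3) and Sorbinil (n = 2). Hspa5, Atf4 and Ddit4 lay near 70 CPM per kb in the DMSO retinas, while Chac1 and Trib3 lay near 3.

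Sorbinil retinas were compared with DMSO retinas by edgeR's quasi-likelihood test, and a gene was called at the threshold of the study, an unadjusted p of at most 0.1 with a change of at least 2-fold. None of the 9 genes was called, when 1.71% of all 14992 genes tested were. By the stricter unadjusted p under 0.05, 1 of the 9 was lower (Psat1), against 1.78% of all genes, and 0 were higher, against 3.23% of all genes. By adjusted p under 0.05, 0 of the 9 and 0 of all genes passed in this test (751 of all genes had an unadjusted p under 0.05, and the smallest adjusted p of all was 0.758); DESeq2's Wald test also passed 0 of the 9 by adjusted p, and gave 2 of them an unadjusted p under 0.05. In 4 genes (Asns, Psat1, Hspa5 and Xbp1) both Sorbinil retinas lay below every DMSO retina, which 10.5% of all genes did, and in 0 genes both lay above, which 12.8% of all genes did. The fitted change was negative in 8 of the 9, with a median log2 fold change of -0.27 beside -0.01 over all genes tested. Without Sorbinil replicate 1 the median was -0.25 and 8 of 9 changes were negative, though not in the same genes: Trib3 turned negative (-0.05) and Sesn2 positive (0.06). Without Sorbinil replicate 3 the median was -0.32 and 6 of 9 changes were negative.

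**Figure D2:**
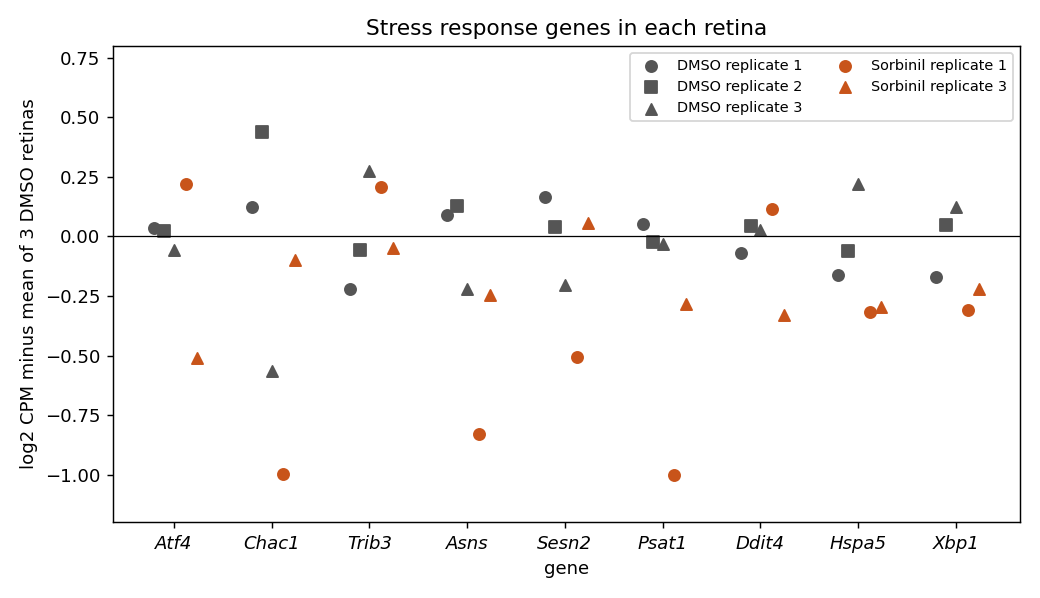
Log2 CPM of each gene in each retina minus the mean of the 3 DMSO retinas, with a point for each retina. Asns, Psat1, Hspa5 and Xbp1 lay below all DMSO retinas in both Sorbinil retinas, whereas Atf4 and Ddit4 were high in Sorbinil replicate 1 and low in Sorbinil replicate 3.

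Atf4, the bZIP factor at the centre of the response (chr15:80139372-80141745, plus strand), had no common direction in the Sorbinil retinas. Its level was 122, 121 and 115 CPM in DMSO replicates 1, 2 and 3 and 139 and 83.9 CPM in Sorbinil replicates 1 and 3. The Sorbinil retinas thus lay on opposite sides of the DMSO group, 117% and 70.2% of its mean. Levels averaged 120 ± 4.21 CPM in DMSO retinas (SD, n = 3) and 112 ± 39.1 CPM in Sorbinil retinas (SD, n = 2), a log2 fold change of -0.10 with an SE of 0.22 (unadjusted p = 0.675, adjusted p = 0.882). The 95% interval of this difference, -0.66 to 0.46 on the log2 scale, leaves room for changes either way. Without Sorbinil replicate 1 the log2 fold change was -0.50, and without Sorbinil replicate 3 it was 0.22. Atf4 was highest in Sorbinil replicate 1 and lowest in Sorbinil replicate 3. Among the marker lists, those of rods and of cones had the same extremes. Among the bZIP factors and partners of the response, 10 of 12 genes were tested, 0 were called and 0 had an unadjusted p under 0.05. The fitted changes had a median of -0.20 (-0.07 when Sorbinil replicate 1 was left out), and against DMSO the list stood at -0.38 (median) in Sorbinil replicate 1 but at -0.06 in Sorbinil replicate 3. Cebpb, a C/EBP partner of ATF4 and the gene of smallest p in the list, had 5.95, 6.26 and 3.85 CPM in the DMSO retinas and 2.68 and 4.46 CPM in the Sorbinil retinas. The groups overlapped, with a log2 fold change of -0.58 (SE 0.34, unadjusted p = 0.137), which was -0.26 without Sorbinil replicate 1.

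Upstream of ATF4, the 4 eIF2alpha kinases did not pass the test. Eif2ak3, which encodes PERK, had 52.7, 53.5 and 50.7 CPM with DMSO and 61.1 and 52.8 CPM with Sorbinil (log2 fold change 0.12, unadjusted p = 0.341). Eif2ak4, which encodes the amino acid sensor GCN2, had 21.8, 21.2 and 20.1 CPM with DMSO and 25.4 and 21.5 CPM with Sorbinil (0.16, unadjusted p = 0.287). In both genes Sorbinil replicate 1 was above every DMSO retina and Sorbinil replicate 3 was within the DMSO range. The haem-sensing kinase Eif2ak1 had 24.4 to 29.8 CPM with DMSO and 23.0 and 26.5 CPM with Sorbinil (-0.12, unadjusted p = 0.447). Eif2ak2, the kinase PKR of double-stranded RNA, was the most variable, at 10.1, 9.41 and 4.91 CPM with DMSO and 3.25 and 7.47 CPM with Sorbinil (-0.60, unadjusted p = 0.247). Ppp1r15a, which encodes the phosphatase subunit GADD34 that reverses eIF2alpha phosphorylation, differed little between retinas. It had 11.9, 12.5 and 12.3 CPM with DMSO and 12.6 and 11.5 CPM with Sorbinil (log2 fold change -0.03, SE 0.14, unadjusted p = 0.861). Without Sorbinil replicate 1 the changes were 0.02 for Eif2ak3, 0.04 for Eif2ak4, -0.01 for Eif2ak1, -0.12 for Eif2ak2 and -0.08 for Ppp1r15a. Over the whole list of eIF2alpha kinases and the eIF2 switch, 18 of 18 genes were tested, 0 were called, 0 had an unadjusted p under 0.05, and the median log2 fold change was 0.01 (-0.01 without Sorbinil replicate 1). The smallest p in that list belonged to Nck1, an adaptor that brings a phosphatase to eIF2alpha, with 25.8, 27.1 and 29.5 CPM with DMSO and 37.5 and 29.4 CPM with Sorbinil (0.28, unadjusted p = 0.113), a change of 0.11 without Sorbinil replicate 1.

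Genes of amino acid synthesis and uptake, the metabolic arm of the ATF4 programme, held 5 of the 7 pathway genes that were lower at an unadjusted p under 0.05. Psat1, the aminotransferase of serine synthesis (chr19:15882039-15924701, minus strand), had 46.2, 43.8 and 43.5 CPM in the DMSO retinas and 22.2 and 36.6 CPM in the Sorbinil retinas. Both Sorbinil values were below the narrow DMSO range, at 49.8% and 82.2% of its mean. Levels averaged 44.5 ± 1.47 CPM in DMSO retinas (SD, n = 3) and 29.4 ± 10.2 CPM in Sorbinil retinas (SD, n = 2), with a log2 fold change of -0.60, an SE of 0.22 and a 95% interval of -1.15 to -0.04 (unadjusted p = 0.0387, adjusted p = 0.758). Its change without Sorbinil replicate 1 was -0.27. Leaving out any of the 3 DMSO retinas raised its unadjusted p above 0.05. Asns, asparagine synthetase and a carrier of a CARE (chr6:7671667-7728461, minus strand), had 33.5, 34.4 and 27.0 CPM with DMSO and 17.7 and 26.5 CPM with Sorbinil. Sorbinil replicate 3 lay just under the lowest DMSO retina, and Sorbinil replicate 1 lay well under it. Levels averaged 31.6 ± 4.02 CPM in DMSO retinas (SD, n = 3) and 22.1 ± 6.22 CPM in Sorbinil retinas (SD, n = 2), a log2 fold change of -0.52 with an SE of 0.22 (95% interval -1.06 to 0.02, unadjusted p = 0.0579, adjusted p = 0.758). Leaving out Sorbinil replicate 1 gave -0.25, and leaving out Sorbinil replicate 3 gave -0.84.

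Other genes of the same list with an unadjusted p under 0.05 were Phgdh, Mthfd1l, Slc7a5 and Cbs, all lower. Phgdh, which catalyses the step of serine synthesis before Psat1, had 12.1, 13.3 and 11.3 CPM with DMSO and 6.09 and 9.68 CPM with Sorbinil (log2 fold change -0.63, SE 0.24, unadjusted p = 0.0406). Slc7a5, the LAT1 transporter of large neutral amino acids, had 72.1, 67.8 and 70.6 CPM with DMSO and 35.8 and 58.9 CPM with Sorbinil (-0.57, SE 0.22, unadjusted p = 0.0456). Psat1, Phgdh, Slc7a5 and Mthfd1l shared close DMSO values and a value near 50% of the DMSO mean in Sorbinil replicate 1. In Sorbinil replicate 3 their values were 79.3% to 84.0% of that mean. Mthfd1l, a mitochondrial enzyme of folate metabolism, had 12.1, 11.3 and 10.5 CPM with DMSO and 5.69 and 8.99 CPM with Sorbinil (-0.62, SE 0.24, unadjusted p = 0.0407). Cbs, which feeds homocysteine into cysteine synthesis, had 2.63, 2.10 and 2.05 CPM with DMSO and 0.704 and 1.53 CPM with Sorbinil. It was the only gene of all the pathway lists past the threshold of the study (-1.01, SE 0.40, unadjusted p = 0.0468, adjusted p = 0.758). It was not called without DMSO replicate 1 (-0.89, unadjusted p = 0.134), and without Sorbinil replicate 1 its change was -0.55. Without Sorbinil replicate 1 the changes were -0.32 for Phgdh, -0.32 for Mthfd1l and -0.24 for Slc7a5.

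Other genes of the same route, chosen after their values were seen, had unadjusted p-values above 0.05 with all 5 retinas. Psph, which completes serine synthesis, had 15.5, 15.1 and 18.1 CPM with DMSO and 16.9 and 13.8 CPM with Sorbinil (log2 fold change -0.08, unadjusted p = 0.654). Shmt2, which passes serine into mitochondrial folate metabolism, had 38.9, 34.9 and 35.4 CPM with DMSO and 38.8 and 35.6 CPM with Sorbinil (0.03, unadjusted p = 0.801). Slc3a2, the partner chain of Slc7a5, had 165, 164 and 169 CPM with DMSO and 151 and 138 CPM with Sorbinil (-0.20, unadjusted p = 0.133). Its Sorbinil values were both below the DMSO range, at 90.8% and 83.2% of the DMSO mean against 51.1% and 84.0% for Slc7a5. Without Sorbinil replicate 1 the changes of Psph, Shmt2 and Slc3a2 were -0.22, -0.02 and -0.25. Over the whole list 23 of 23 genes were tested, 16 were lower and 7 higher, with a median log2 fold change of -0.12 (-0.07 without Sorbinil replicate 1). Of these, 1 was called, beside 1.71% of all genes, and 5 were lower at an unadjusted p under 0.05, beside 1.78%. In 8 both Sorbinil retinas were below every DMSO retina, beside 10.5% of all genes. Serine synthesis enzymes are known to be abundant in Müller glia, whose marker list stood at -1.44 in Sorbinil replicate 1 and at 0.02 in Sorbinil replicate 3. In the latter retina 1 of 10 Müller markers was below every DMSO retina, beside 29.1% of all genes. Of the 23 genes of the amino acid list, 10 were below every DMSO retina there. Another 3 were above, beside 4094 of all 14992 genes. The part of Müller glia in the values of either Sorbinil retina was not tested. Among genes of tRNA charging, another arm of the ATF4 programme, 13 of 14 were tested, 0 were called and 0 had an unadjusted p under 0.05. In 6 of them both Sorbinil retinas were below every DMSO retina and in 2 both were above, beside 10.5% and 12.8% of all genes. The fitted changes had a median of -0.02 (-0.08 when Sorbinil replicate 1 was left out), and the smallest p belonged to Wars, the tryptophanyl tRNA synthetase, with 87.2, 83.3 and 73.8 CPM with DMSO and 65.6 and 70.7 CPM with Sorbinil (-0.26, unadjusted p = 0.0905), a change of -0.19 without Sorbinil replicate 1.

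The members that restrain growth or feed back on the response differed among themselves. Chac1, which degrades glutathione and is a target of ATF4 and CHOP (chr2:119180757-119184866, plus strand), had 5.50, 6.84 and 3.40 CPM with DMSO and 2.51 and 4.70 CPM with Sorbinil. The groups overlapped, since Sorbinil replicate 3 was above DMSO replicate 3. Levels averaged 5.25 ± 1.73 CPM in DMSO retinas (SD, n = 3) and 3.61 ± 1.55 CPM in Sorbinil retinas (SD, n = 2), with a log2 fold change of -0.54, an SE of 0.41 and the widest 95% interval of the 9 genes, -1.55 to 0.47 (unadjusted p = 0.236). Leaving out Sorbinil replicate 1 gave -0.15, and leaving out Sorbinil replicate 3 gave -1.07. The 5 retinas ranked by Chac1 (DMSO replicate 2, DMSO replicate 1, Sorbinil replicate 3, DMSO replicate 3, Sorbinil replicate 1) in the same order as by the median of the RGC list, which was 0.22, 0.21, -0.22, -0.43 and -1.26 against DMSO. The microglia list (0.31, 0.03, -0.16, -0.34 and -0.89) and the astrocyte list (0.20, 0.13, 0.07, -0.27 and -1.29) gave this order too. Most marker lists gave other orders: rods, cones, bipolar cells, amacrine and horizontal cells, Müller glia, vessels, pigment epithelium and lens. The part of these markers in the Chac1 values was not tested. Trib3, a pseudokinase that dampens ATF4 (chr2:152179337-152191958, minus strand), was the only member with a positive fitted change. It had 4.74, 5.32 and 6.70 CPM with DMSO and 6.39 and 5.35 CPM with Sorbinil, both within the DMSO range. The log2 fold change was 0.07 with an SE of 0.23 and a 95% interval of -0.49 to 0.63 (unadjusted p = 0.757), and its sign turned with library size scaling (-0.04) and without Sorbinil replicate 1 (-0.05) or DMSO replicate 1 (-0.03).

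Sesn2 and Ddit4 encode stress-induced inhibitors of mTORC1, the growth kinase. Sesn2, a leucine sensor (chr4:132219335-132237815, minus strand), had 23.98, 21.9 and 18.5 CPM with DMSO and 15.05 and 22.2 CPM with Sorbinil. Only Sorbinil replicate 1 was outside the DMSO range, and the log2 fold change was -0.21 with an SE of 0.22 (95% interval -0.74 to 0.33, unadjusted p = 0.380). This change was 0.06 when Sorbinil replicate 1 was left out. Ddit4, also known as REDD1 and induced by hypoxia and glucocorticoids as well (chr10:59785491-59788492, minus strand), had 114, 123 and 122 CPM with DMSO and 130 and 95.1 CPM with Sorbinil. Its pattern was that of Atf4, with Sorbinil replicate 1 above and Sorbinil replicate 3 below every DMSO retina. The log2 fold change was -0.09 with an SE of 0.16 (95% interval -0.50 to 0.31, unadjusted p = 0.597). Without Sorbinil replicate 1 it was -0.32, and without Sorbinil replicate 3 it was 0.12. Of the whole list of ATF4 and CHOP targets with roles in feedback, growth control and death, 22 of 23 genes were tested, 17 were lower and 5 higher, and the median log2 fold change was -0.30, which was -0.05 without Sorbinil replicate 1. None was called, beside 1.71% of all genes, and 1 was lower at an unadjusted p under 0.05, beside 1.78%. This was Cdkn1a, the cell cycle inhibitor p21 and also a target of p53, with 7.07, 7.78 and 5.58 CPM with DMSO and 3.44 and 5.10 CPM with Sorbinil (-0.67, SE 0.26, unadjusted p = 0.0457). Its change was -0.41 without Sorbinil replicate 1. Against DMSO the list stood at a median of -0.55 in Sorbinil replicate 1, the retina in which RGC and Müller markers were low, but at -0.05 in Sorbinil replicate 3. The part of those markers in the list median was not tested.

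**Figure D3:**
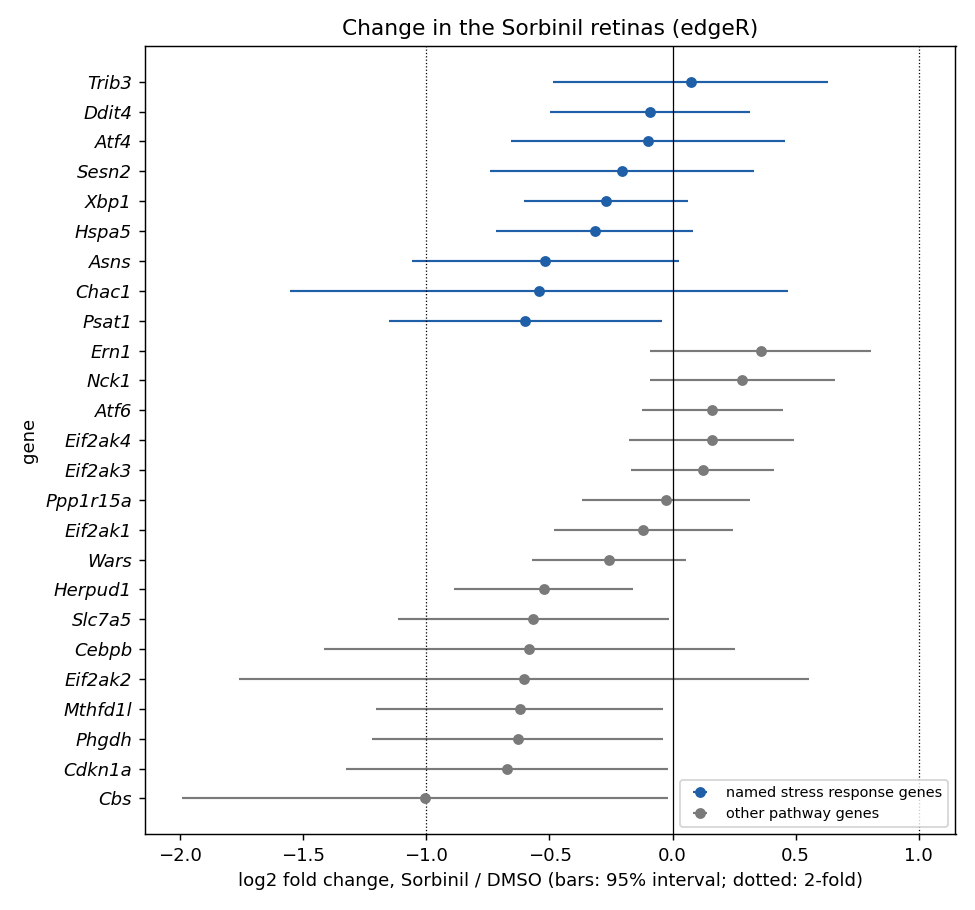
Log2 fold change of Sorbinil over DMSO from edgeR's fit, with 95% intervals as bars and dotted lines at 2-fold, for the 9 stress response genes (blue) and other named pathway genes (grey). The interval of Psat1 lies below 0 among the blue genes, those of Herpud1, Slc7a5, Mthfd1l, Phgdh, Cdkn1a and Cbs do among the grey ones, and no interval lies wholly above 0.

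In the ER branch, Hspa5 and Xbp1 were modestly lower in both Sorbinil retinas and varied little between them. Hspa5, the lumenal chaperone BiP and the carrier of the ERSE shown (chr2:34661982-34668880, plus strand), had 317, 339 and 413 CPM with DMSO and 284 and 288 CPM with Sorbinil. The Sorbinil retinas differed from each other by less than any pair of DMSO retinas did, and both were below the DMSO range. Levels averaged 356 ± 50.2 CPM in DMSO retinas (SD, n = 3) and 286 ± 2.68 CPM in Sorbinil retinas (SD, n = 2), a log2 fold change of -0.32 with an SE of 0.16 (95% interval -0.72 to 0.08, unadjusted p = 0.1005, adjusted p = 0.758). Xbp1, the factor activated by IRE1 (chr11:5470606-5483027, plus strand), had 71.0, 82.8 and 87.2 CPM with DMSO and 64.6 and 68.7 CPM with Sorbinil. Levels averaged 80.3 ± 8.36 CPM in DMSO retinas (SD, n = 3) and 66.7 ± 2.90 CPM in Sorbinil retinas (SD, n = 2), a log2 fold change of -0.27 with an SE of 0.13 (95% interval -0.60 to 0.06, unadjusted p = 0.0947, adjusted p = 0.758). For both genes the retina closest to the Sorbinil values was DMSO replicate 1. Leaving out Sorbinil replicate 1 kept their direction, at -0.30 for Hspa5 and -0.21 for Xbp1.

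Herpud1, an ER membrane protein of ER-associated degradation and the carrier of a CARE and an ERSE-II, had the smallest p of all the pathway genes. It had 74.2, 72.4 and 71.2 CPM with DMSO and 43.9 and 57.1 CPM with Sorbinil, so the DMSO values were tight and both Sorbinil values were under them. Levels averaged 72.6 ± 1.49 CPM in DMSO retinas (SD, n = 3) and 50.5 ± 9.37 CPM in Sorbinil retinas (SD, n = 2), with a log2 fold change of -0.52 and an SE of 0.15 (unadjusted p = 0.0129, adjusted p = 0.758), below the 2-fold of the threshold. Its change without Sorbinil replicate 1 was -0.34. The other genes of degradation and translocation had values on both sides: of 25 genes tested, Herpud1 included, 11 were lower and 14 higher, 1 (Herpud1) had an unadjusted p under 0.05, and the median log2 fold change was 0.01 (-0.09 without Sorbinil replicate 1, with 19 lower and 6 higher). Of the ER chaperones and folding enzymes, 22 of 22 were tested and 0 were called, 17 were lower and 5 higher with a median log2 fold change of -0.04 (-0.20 without Sorbinil replicate 1), and the smallest p was that of Hspa5 itself. Hsp90b1, the chaperone GRP94, had 336, 413 and 393 CPM with DMSO and 420 and 325 CPM with Sorbinil (-0.03, unadjusted p = 0.863). Manf, a secreted ER stress protein, had 40.1, 43.0 and 53.7 CPM with DMSO and 39.7 and 33.7 CPM with Sorbinil (-0.31, unadjusted p = 0.119), both Sorbinil values below the DMSO range. Leaving out Sorbinil replicate 1 gave -0.22 for Hsp90b1 and -0.42 for Manf. Both genes were chosen after their values were seen.

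The genes of the sensors IRE1 and ATF6, like that of PERK, had positive fitted changes that did not pass the threshold. Ern1, which encodes IRE1, had 31.0, 35.6 and 36.8 CPM with DMSO and 51.6 and 36.7 CPM with Sorbinil. Sorbinil replicate 1 was above every DMSO retina and Sorbinil replicate 3 was within their range, with a log2 fold change of 0.36 (SE 0.18, unadjusted p = 0.0975) that was 0.10 without Sorbinil replicate 1. Atf6 had 122, 127 and 126 CPM with DMSO and 147 and 132 CPM with Sorbinil, so both Sorbinil retinas were above the DMSO range (log2 fold change 0.16, SE 0.12, unadjusted p = 0.211), with a change of 0.09 without Sorbinil replicate 1. Its paralogue Atf6b, named after its values were seen, had 70.6, 73.9 and 79.5 CPM with DMSO and 76.9 and 63.6 CPM with Sorbinil (-0.09, unadjusted p = 0.539), a change of -0.22 without Sorbinil replicate 1. Over the 10 genes of sensors and their proteases, 0 were called, the fitted changes had a median of 0.04 (-0.003 when Sorbinil replicate 1 was left out), and the smallest p was that of Xbp1. In all 8 pathway lists together, with genes shared between lists counted once, 135 of 139 genes were tested and the median log2 fold change was -0.05. Of the 135, 1 was called and 7 were lower and 0 higher at an unadjusted p under 0.05, beside 1.78% lower and 3.23% higher among all genes. Both Sorbinil retinas were below every DMSO retina in 26 and above in 10, beside 10.5% and 12.8% of all genes. When Sorbinil replicate 1 was left out, the median of the 135 was -0.08. Without the 9 genes the remaining 126 gave a median of -0.04, with 76 lower and 50 higher. Batf2 and Fgf21 were too low to be tested.

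**Figure D4:**
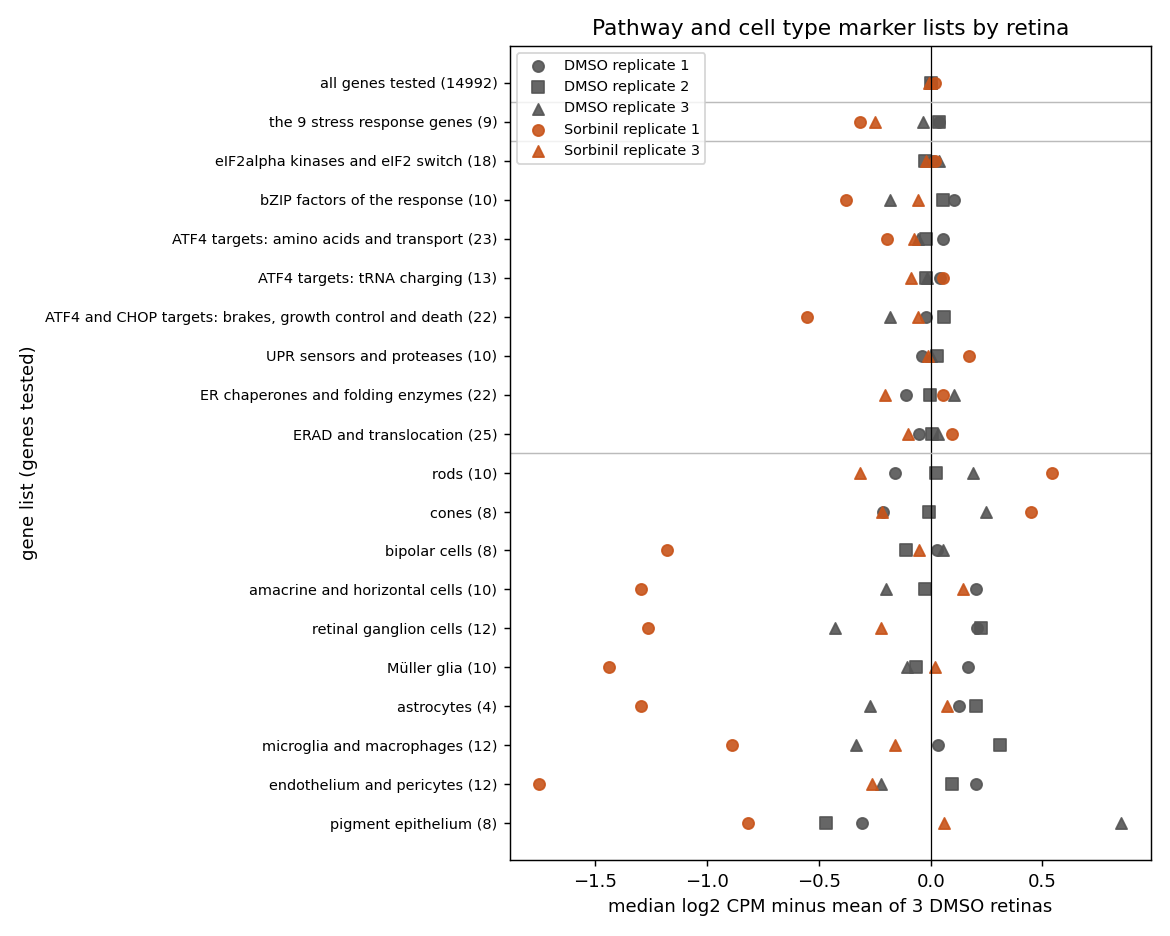
Median over each gene list of log2 CPM minus the mean of the 3 DMSO retinas, with a point for each retina and the number of genes tested in brackets. The bZIP list (-0.38) and the list of feedback, growth control and death (-0.55) were lowest among pathway lists in Sorbinil replicate 1, where Müller glia markers stood at -1.44 and rod markers at 0.54.

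Other genes overlap some of these loci: Rabepk opposite Hspa5, Ccdc117 opposite Xbp1, the pseudogene Gm3329 opposite Psat1, and long noncoding RNAs opposite Asns, Trib3 and Herpud1 and on the same strand at Sesn2. The libraries were stranded per the labels, but the sources used here do not state that counting used the strand, so reads of these partners may be included. With 3 and 2 retinas and 95% intervals that mostly span 0, a p above the threshold does not show that a gene was alike in both groups.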

How the data were processed

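Total RNA of 5 injured retinas was sequenced. Per the labels and the methods of the study, the authors trimmed adaptors, aligned reads to GRCm39 with CLC Genomics Workbench at default settings and deposited total counts per gene, a raw count for each retina. The annotation release, the use of strand and the handling of reads on several genes are not given in the sources used here. Low counts were removed (filterByExpr, minimum count 10), TMM was used for scaling, and groups were compared in edgeR 4.0.16 (glmQLFit and glmQLFTest, R 4.3.3) on group alone, with Benjamini-Hochberg adjustment over 14992 genes. Levels are CPM on TMM-scaled library sizes. Deviations by retina are log2 CPM with a prior count of 2. The SE is the log2 fold change divided by the root of its F statistic. The test was tried on simulated data. Annotation and lengths (Ensembl canonical transcripts) came from GENCODE vM39, for 23524 of 25655 symbols. Promoter windows and synonyms came from RefSeq; the window table is on build GRCm38.p6, so each window shown was placed on GRCm39 by exact match of its sequence. Named genes were the members, pathway genes past the threshold or with unadjusted p under 0.05 (otherwise the smallest p of a list), and fixed regulators; exceptions are named. Members and lists were chosen with earlier results of these data known. Alternatives were other scalings, filters, tests (DESeq2 1.42.0), thresholds, a replicate block and leaving out each retina. No retinas were duplicates by chi-square of counts (lowest value per degree of freedom 25.4). Sequencing depth limits low genes such as Cbs (37 to 254 counts). Intervals rest on 5 retinas.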

Additional observations from a re-analysis of the deposited data

How the results depend on the processing

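Members called by the threshold of the study numbered 0 in all scalings, filters and tests tried, 1 at an unadjusted p under 0.05 with any fold and 0 at adjusted p. Leaving out either Sorbinil retina leaves 1, assumed to vary like the DMSO retinas, so counts from those fits are not a replicated check. Members with an unadjusted p under 0.05 numbered 2 by DESeq2's Wald test, 3 without Sorbinil replicate 1, 4 without Sorbinil replicate 3 and 0 with a replicate block or without any of the DMSO retinas; without Sorbinil replicate 3, 2 members (Psat1 and Asns) had an adjusted p under 0.05. Leaving out a retina gave 0 to 2: the 2 were Chac1 (-1.07) and Psat1 (-1.003) without Sorbinil replicate 3, when 2903 of 15266 genes were called, and the lone Sorbinil retina is then assumed to vary like the DMSO retinas. The median log2 fold change of the members was -0.36 with library size scaling, which moved the median of all genes from -0.01 to -0.11, and -0.35 to -0.21 when a retina was left out. Called genes ranged, when a retina was left out, from 0 to 1 among eIF2alpha kinases and the eIF2 switch, 0 to 1 among bZIP factors (1 also without a filter), 0 to 5 among amino acid genes, 0 to 5 among feedback, growth and death genes and 0 to 1 in degradation and translocation. In 6 of 108 member values the direction turned. Leaving out a retina gave -0.50 to 0.22 for Atf4, -0.32 to 0.12 for Ddit4 and -0.078 to 0.038 for Ppp1r15a (upper values without Sorbinil replicate 3), -0.51 to 0.056 for Sesn2 (upper value without Sorbinil replicate 1) and -0.046 (without Sorbinil replicate 1) to 0.22 for Trib3, with -0.033 without DMSO replicate 1; library size scaling gave -0.036 for Trib3. The groups share replicate numbers 1 and 3, but no source pairs the mice. Correlations of deviations cannot decide this, since the 2 Sorbinil retinas deviate from their own mean as mirror images. DMSO replicate 1 thus correlated at -0.24 with Sorbinil replicate 1 and at 0.24 with Sorbinil replicate 3. With a replicate block 0 members were called, Psat1 was -0.65 (unadjusted p = 0.0786) and 0 amino acid genes were called, Cbs being -1.15 (unadjusted p = 0.122). All genes called numbered 257, against 408 without a filter, 148 with at least 10 counts in every retina, 164 without DMSO replicate 1 and 2903 without Sorbinil replicate 3. The cause of these changes was not tested. Each member had 132 counts or more in every retina.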
